A study of Mus musculus with 3 samples.

Results

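Interferon-stimulated genes are the genes that cells turn on when interferon binds its receptors. A list of 39 such genes was looked up by symbol among the 31253 genes of each count matrix. Of these, 38 matched, and Mx1 was not analysed here. The genes were followed across cell classes of the mouse arcuate nucleus, the hypothalamic region that controls feeding, with endothelial cells, microglia and astrocytes first.

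Type I interferons bind the receptor pair Ifnar1 and Ifnar2, and interferon gamma binds Ifngr1 and Ifngr2. Kinases on the receptors then activate transcription factors, among them Stat2, which joins Irf9 to bind a DNA element with repeated GAAA letters in front of target genes. The products block viruses at many steps: they bind foreign RNA, tag proteins with Isg15, degrade RNA, deplete nucleotides and alter membranes. In the brain, endothelial cells and microglia are known to respond strongly, and many of these genes are also made at a low level without infection.

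Mice were male C57BL/6JRj, 5 to 6 weeks old, and the labels name no engineered allele. Feeding began at weaning and lasted 15 days: standard chow (SC) throughout in the SC group, HFHS (a diet high in fat and sugar) throughout in the 15-day group, and HFHS only during the closing 5 days, after 10 days of SC, in the 5-day group. The arcuate nuclei of 6 mice were pooled for each diet, so there were 3 single-cell RNA libraries, called SC, 5-day and 15-day below, and no diet had a replicate. Differences therefore compare 3 pools, diets could not be tested against each other, and p-values are absent. Tissue was digested with enzymes into single cells, and molecules were counted as unique molecular identifiers (UMIs) at the 3′ end of transcripts, so levels need no scaling for gene length.

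After filtering, 4825 SC, 4041 5-day and 5157 15-day cells remained, with medians of 5172, 5783 and 4152 UMIs per cell. Clusters were named from marker genes, and 10 classes held at least 100 cells in each library. Endothelial-like cells numbered 319, 310 and 336, microglia-like cells 581, 508 and 627, and astrocyte-like cells 788, 800 and 1246. All 14 endothelial markers were seen in the endothelial-like class, and 89.7% of its cells kept their class when clustered without the listed genes. Depth differed between libraries there: the median was 7548 UMIs per cell in the SC library, 6736 in the 5-day library and 3726.5 in the 15-day library. Between 79 and 151 barcodes of each library also occurred in another library. Levels are in CPM, the UMIs of a gene scaled to the total UMIs of all cells of a class and library. Brackets hold 95% intervals for counting error alone; they leave out how cells, mice or pools vary.

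Promoter sequence was examined as a feature of these genes that the list did not use. The letters GAAANNGAAA, the core of the interferon-stimulated response element, or TTTCNNTTTC on the other strand, were searched on both strands within 250 bases before each start in RefSeq promoters of GRCm38.p6, counting matches that overlap. Of the 38 genes, 31 were in that table and 13 (41.9%) held the letters, against 936 of 27025 genes (3.46%). The stretches below are shown because Ifit1, Ifit3, Ifit3b, Isg15 and Rsad2 are core genes described further on that hold the letters; each reads 5′ to 3′ on the strand of the gene, and capitals mark the matched letters.
Ifit1: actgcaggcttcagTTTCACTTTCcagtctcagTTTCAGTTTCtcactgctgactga
Ifit3: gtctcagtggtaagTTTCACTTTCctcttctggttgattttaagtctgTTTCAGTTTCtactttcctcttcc
Ifit3b: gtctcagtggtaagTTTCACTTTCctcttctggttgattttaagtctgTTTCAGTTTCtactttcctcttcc
Isg15: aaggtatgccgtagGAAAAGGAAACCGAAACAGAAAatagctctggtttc
Rsad2: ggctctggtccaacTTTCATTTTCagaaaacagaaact
The Ifit1 stretch (chr19:34640771-34640827, forward strand) lay 118 to 62 bases before the start and held 2 matches. The Ifit3 (chr19:34583359-34583430, forward strand) and Ifit3b (chr19:34607755-34607826, forward strand) stretches were identical over all 72 bases, also with 2 matches. Isg15 (chr4:156200861-156200910, reverse strand) had 3 overlapping matches in 50 bases, and Rsad2 (chr12:26456549-26456586, reverse strand) had 1. Oas1a, Bst2, Gbp2, Gbp3, Gbp7, Trim30a, Ifitm2 and Stat2 were the other genes with a match. Of the induced core defined below, 11 genes were in the table and 6 held the letters; Irf7, Oasl2, Ifi44, Cmpk2 and Ifit2 did not. A match describes the letters in this window and does not show that a factor binds there.

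Of the 10 classes, endothelial-like cells had the highest level. Summed over the 38 genes, they had 8080.1, 8328 and 7569 CPM in the SC, 5-day and 15-day libraries. Pericyte-like cells, which wrap capillaries, had 4434, 4108 and 4561 CPM, and microglia-like cells had 2969, 3142 and 3084. Ependymal-like cells, which line the ventricle, had 1277, 1377 and 1100.1, and tanycyte-like cells, glia of the ventricle floor, had 1040.4, 1113 and 1030.0. Astrocyte-like cells had 431, 573 and 445. Below or beside these stood oligodendrocyte precursors (OPC-like) at 431, 499.9 and 483, neuron-like cells at 387, 339.7 and 371, committed precursors (COP-like) at 305, 391 and 322 and oligodendrocyte-like cells at 278, 261 and 303. In this order, the ranges over libraries overlapped between ependymal-like and tanycyte-like, between astrocyte-like and OPC-like and between neuron-like and COP-like cells, and no other neighbours overlapped. Border macrophage-like cells, too few to compare at 36, 21 and 47 cells, had 6441, 8265 and 6929.6 CPM.

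Gene by gene, 26 of the 38 (68.4%) were highest in endothelial-like cells in all 3 libraries, against 5.88% of the 16095 genes considered. Microglia-like cells were highest for 4, namely Ifi27l2a, Trim30a, Lgals3bp and Psmb8, against 8.43% of genes. Pericyte-like cells led for Ifitm2 (3.63% of genes led there) and tanycyte-like cells for Ifi27 (3.18%). For Ifit2, Ifit3b, Oas1a, Cmpk2, Zbp1 and Tap1 the leading class changed with the library. Set directly against microglia-like cells, 31 genes were higher in endothelial-like cells with no overlap between libraries (33.6% of genes), 4 were higher in microglia-like cells (23% of genes), and 3 overlapped. The highest astrocyte-like library lay below the lowest endothelial-like library for 37 of 38 genes. The share of all genes that did so was not counted, so this number has no background to be read against.

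**Figure D1:**
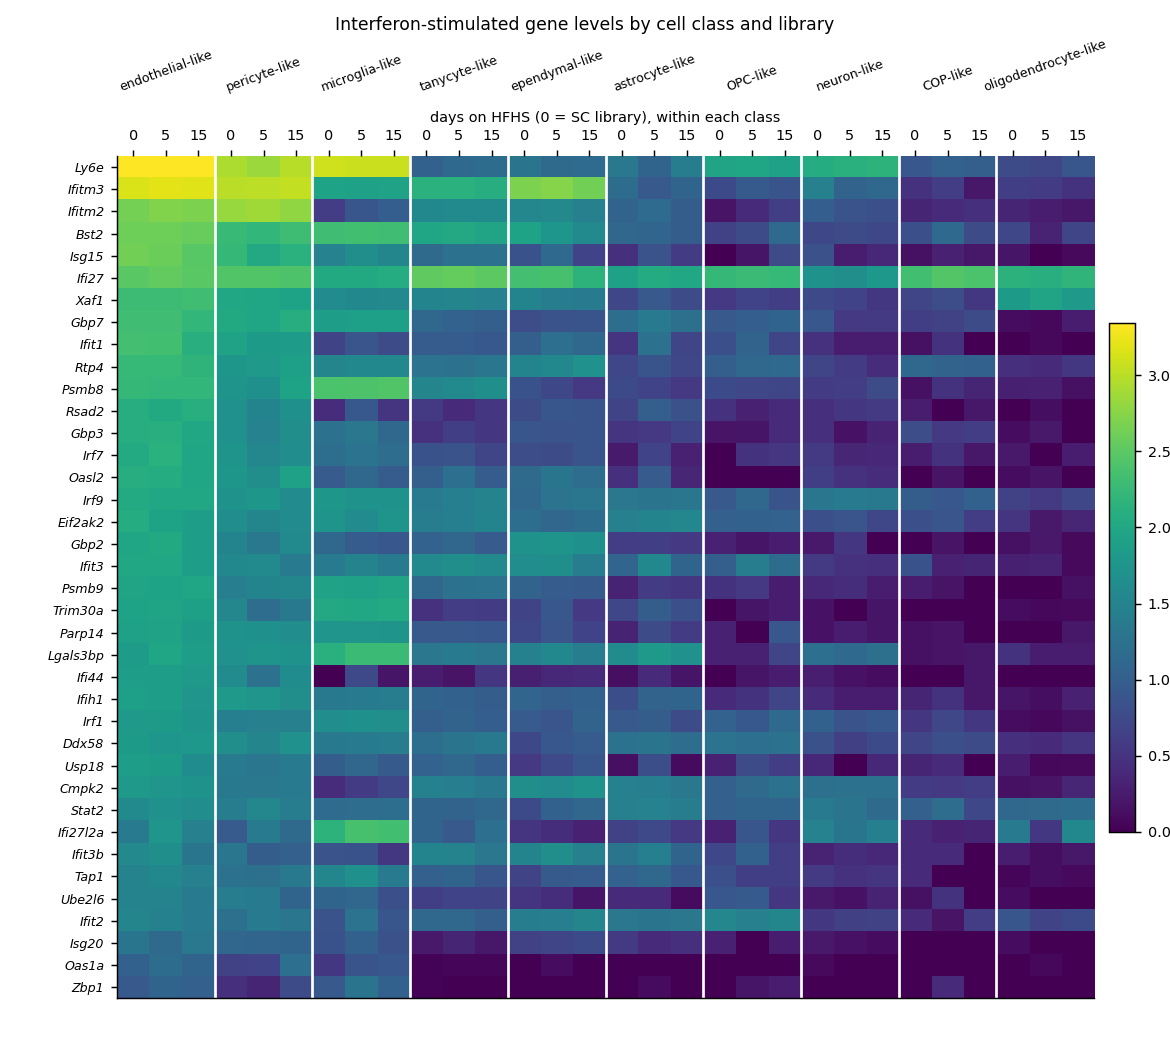
Level of each of the 38 genes (rows, ordered by mean endothelial-like CPM) in 10 cell classes, with 3 columns per class for the SC (0), 5-day and 15-day HFHS libraries; colour gives log10(CPM + 1). The endothelial-like columns are the brightest for most rows, and columns within a class look alike next to the steps between classes.

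Membrane genes made up the bulk of the signal. Ly6e, a membrane-anchored protein that restricts or aids virus entry, stood in endothelial-like cells at 2219 CPM in the SC library, 2219 in the 5-day library and 2214 in the 15-day library. It was lower in microglia-like cells, at 1254, 1186 and 1205 CPM in the same order, and lower again in astrocyte-like cells, at 20.8, 10.8 and 24.1. Ifitm3, which hinders virus fusion in endosomes, had 1430.4 CPM in the SC library, 1601 in the 5-day library and 1519.9 in the 15-day library in endothelial-like cells. Its relative Ifitm2 had 446, 515 and 488 CPM there and 676, 747 and 626 in pericyte-like cells, but its exons overlap Gm45717 on the same strand, so its counts are uncertain. Bst2, or tetherin, which holds budding virus at the cell surface, had 406, 403 and 369.5 CPM in endothelial-like and 205, 214 and 207 in microglia-like cells. Ifi27, a small hydrophobic protein found at mitochondria, was spread over several classes, with 312, 348 and 313 CPM in endothelial-like, 335, 359.6 and 319.9 in tanycyte-like, 106, 106 and 115 in microglia-like and 80.5, 112 and 97.6 in astrocyte-like cells. In endothelial-like cells these abundant genes stood at much the same level in all 3 libraries.

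The induced core, 15 antiviral genes that start from a low level and of which 14 matched (Ifit1, Ifit2, Ifit3, Ifit3b, Isg15, Usp18, Oasl2, Oas1a, Irf7, Rsad2, Cmpk2, Rtp4, Ifi44 and Zbp1), separated endothelial-like from microglia-like cells more sharply than the whole list did. The core was chosen with earlier results of these data known, so this may follow in part from that choice. The summed level of the core was 1574, 1533 and 1172 CPM in endothelial-like cells of the SC, 5-day and 15-day libraries, 145, 223 and 161 in microglia-like cells and 93.9, 164 and 83.3 in astrocyte-like cells. Isg15, the ubiquitin-like tag, had 428 CPM in the SC library, 398 in the 5-day library and 295 in the 15-day library in endothelial-like cells, against 29.1, 44.5 and 33.9 CPM in microglia-like and 1.92, 6.08 and 2.91 in astrocyte-like cells. Ifit1, which binds RNA lacking a self cap, had 223 CPM in the SC library, 213 in the 5-day library and 124 in the 15-day library in endothelial-like cells and 3.81, 6.63 and 4.996 CPM in microglia-like cells. A UMI of Ifit1 was found in 61.8%, 51.6% and 34.2% of endothelial-like cells of the same libraries. In oligodendrocyte-like cells, at medians of 14519.5, 15917 and 9659 UMIs, the share was 0%, 0.282% and 0%, a share that free RNA in the droplets could also give.

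Irf7, Oasl2, Rsad2, Usp18, Ifit3 and Ifit2 were also higher in endothelial-like than in microglia-like cells of every library, while Zbp1 overlapped between the classes, with 7.70, 10.9 and 9.47 CPM in endothelial-like and 7.62, 18.6 and 9.99 in microglia-like cells. Irf7, the transcription factor that amplifies the response, had 109 CPM in the SC library, 136 in the 5-day library and 91.96 in the 15-day library in endothelial-like cells, against 15.2, 17.997 and 14.7 CPM in microglia-like cells. Oasl2, an oligoadenylate synthetase-like protein, had 119.7, 115 and 94.7 CPM in endothelial-like and 8.17, 12.6 and 8.33 in microglia-like cells. Rsad2, or viperin, which makes a chain-terminating nucleotide, had 122, 108 and 128 CPM in endothelial-like and 1.63, 7.26 and 2.22 in microglia-like cells. The endothelial-like and microglia-like ranges of all 3 genes were far apart. Usp18, which removes Isg15 from proteins and damps the receptor, had 74.3, 65.8 and 41.2 CPM in endothelial-like cells and 8.71, 11.7 and 7.77 in microglia-like cells. Ifit3, a partner of Ifit1, had 101, 96.4 and 74.1 CPM in endothelial-like and 22.05, 29.99 and 22.2 in microglia-like cells. Ifit2, another family member, was closer between classes: endothelial-like cells had 32.3, 28.2 and 22.9 CPM and astrocyte-like cells 20.02, 18.5 and 20.4. The immunoproteasome subunit Psmb8 was the other way round, with 249, 259 and 269 CPM in microglia-like and 168, 163 and 162 in endothelial-like cells.

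For differences between diets, a gene was called when its UMIs in the 2 libraries added up to 50 or more, with 10 CPM or more in 1 of them, a 1.5-fold difference or more, and an interval wholly beyond a ratio of 5 to 4; this is called the size rule. In endothelial-like cells, 1 of 38 genes was higher in the 5-day than in the SC library (0.279% of all genes considered) and none was lower (0.209%). Ifi27l2a, a small relative of Ifi27, had 54.97 CPM in the 5-day library against 23.7 in the SC library, with a log2 ratio of 1.21 [0.82 to 1.62]. The call was lost in cells thinned to 1000 UMIs, without carrying cells (defined further on) and in cells of 2000 to 6000 UMIs, where fewer UMIs were counted and the log2 ratios were 1.42, 2.28 and 2.40. Its 15-day level was 27.9 CPM. Over the 38 genes the median log2 ratio was -0.010, beside -0.0015 over all genes with 50 UMIs, and 16 ratios were above and 22 below 1.

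At 15 days, 4 of 37 genes were lower in endothelial-like cells than in the SC library (0.708% of genes) and none was higher (1.96% of genes). Ifit1 had 124 CPM in the 15-day library against 223 in the SC library, with a log2 ratio of -0.85 [-1.07 to -0.63]. Ifit3b is a near copy of Ifit3, which holds 4.59% of the 31-base words in the final 500 bases of Ifit3b, so some reads may not be told apart. Ifit3b had 18.9 CPM in the 15-day library against 36.4 in the SC library (log2 ratio -0.94 [-1.54 to -0.39]). The 15-day value of each lay below both other libraries. Usp18 had 41.2 CPM in the 15-day library against 74.3 in the SC library (log2 ratio -0.85 [-1.24 to -0.47]). Eif2ak2, the kinase PKR that stops translation when it binds double-stranded RNA, had 72.5 CPM in the 15-day library against 117 in the SC library (log2 ratio -0.70 [-0.99 to -0.41]), with 86.5 CPM in the 5-day library between them. Thinned to 1000 UMIs per cell, Ifit1 was at -1.14 and Usp18 at -0.19. A cluster of the class led by Plvap, Igfbp3 and Esm1 held 2, 1 and 22 cells of the SC, 5-day and 15-day libraries. Isg15 missed the ratio, at 295 CPM in the 15-day library against 428 in the SC library (log2 ratio -0.54 [-0.68 to -0.39]). Rsad2, with a log2 ratio of 0.068 [-0.17 to 0.30], and Ly6e, with a log2 ratio of -0.0035 [-0.059 to 0.052], did not share the lower level. The median of the 37 was -0.23, beside -0.048 over all genes, with 11 ratios above and 26 below 1.

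**Figure D2:**
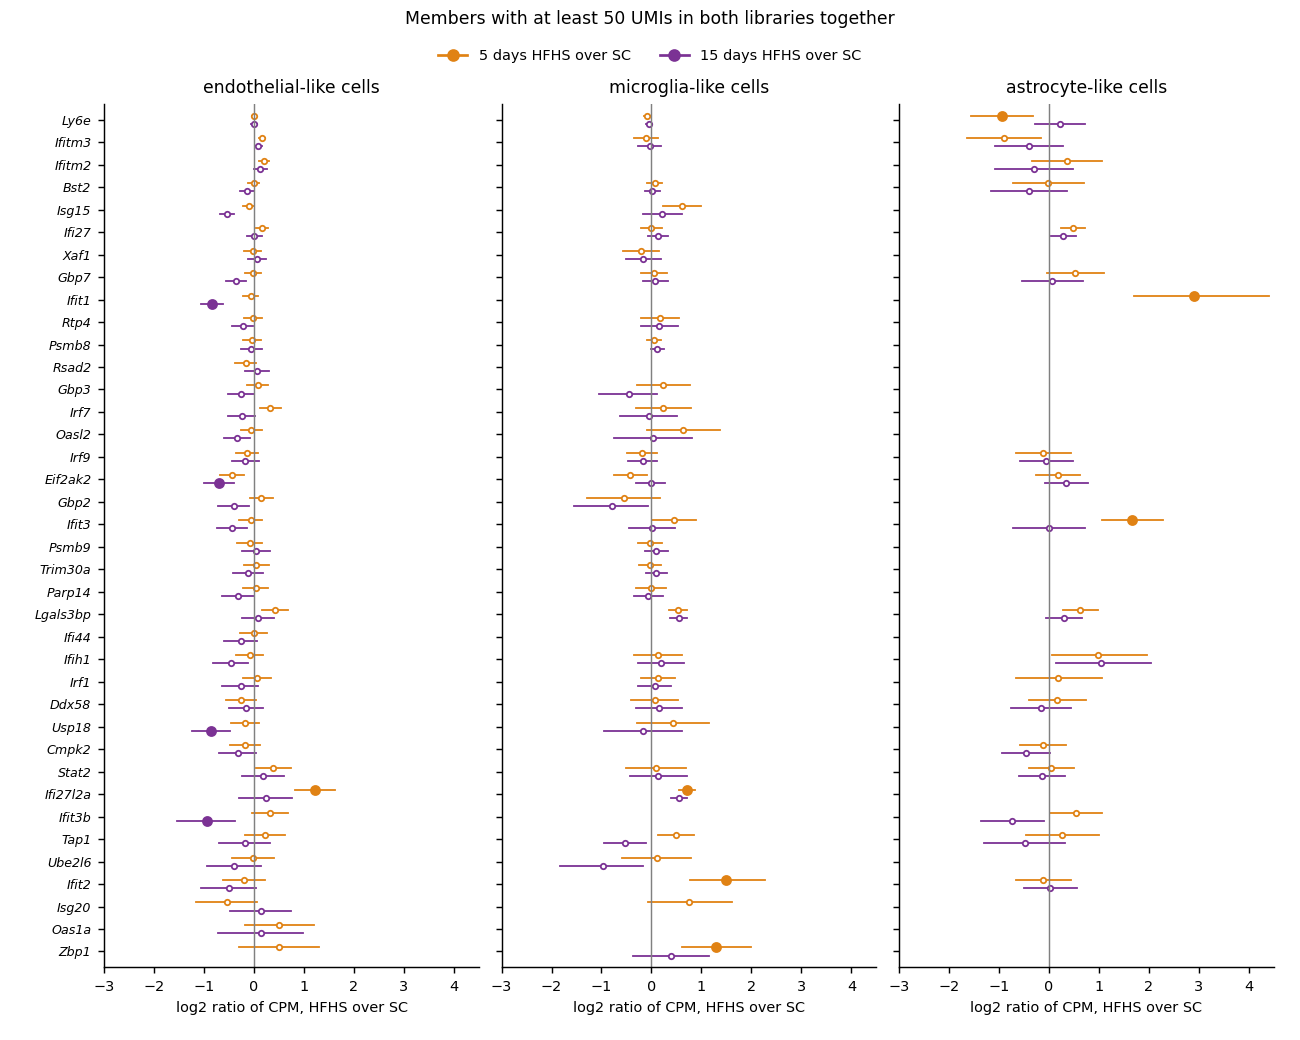
Log2 ratio of CPM, HFHS over SC, for genes whose UMIs in the 2 libraries add up to 50 or more, in endothelial-like, microglia-like and astrocyte-like cells; orange is 5 days, purple 15 days, bars are 95% counting intervals and filled points meet the size rule. In endothelial-like cells the filled points are Ifi27l2a at 5 days and Ifit1, Ifit3b, Usp18 and Eif2ak2 at 15 days; most other points sit near 0.

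Cells carrying the response were counted as those with a UMI of at least 4 core genes. They were 219 of 319 endothelial-like cells in the SC library (68.7% [63.2 to 73.7]), 187 of 310 in the 5-day library (60.3% [54.6 to 65.8]) and 124 of 336 in the 15-day library (36.9% [31.7 to 42.3]). The 15-day share lay below both others. Carrying cells were deeper, with medians of 10000, 9982 and 8127 UMIs against 4284.5, 4389 and 2765.5 in the other endothelial-like cells of the SC, 5-day and 15-day libraries. Cells were also thinned to an equal depth, and cells with fewer UMIs than the target were left out. Thinned to 3000 UMIs, a setting chosen after seeing the data, the shares were 40.6% [34.9 to 46.6], 36.4% [30.6 to 42.6] and 31.3% [25.02 to 38.0], whose intervals overlap. All cells under 2000 UMIs (24, 35 and 73) were among those left out there, so the libraries lost unequal parts of their cells. Thinned to 1000 UMIs the shares were 9.71% [6.65 to 13.6] of 309 cells, 7.77% [4.99 to 11.4] of 296 and 1.99% [0.733 to 4.27] of 302, with 10, 14 and 34 cells left out. The 15-day interval lay below both others. Among cells of 4000 to 8000 UMIs, 61.8% of 110, 56.1% of 114 and 42.2% of 83 carried the core, whose summed level was 1781, 1585 and 1177 CPM. At 8000 UMIs or more the shares were 93.3%, 85.7% and 88.7% and the summed levels 1514, 1531 and 1151 CPM. From 2000 to 4000 UMIs they were 33.3% of 36, 21.4% of 28 and 21.1% of 109 cells, at 1878, 1293 and 1255 CPM. Below 2000 UMIs they were 0% of 24, 8.57% of 35 and 4.11% of 73 cells, at 1013, 1291 and 1050 CPM. The 15-day core level was thus the lowest of the libraries in the 3 bands from 2000 UMIs up but not below 2000 UMIs, and the order of the shares changed with the band.

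**Figure D3:**
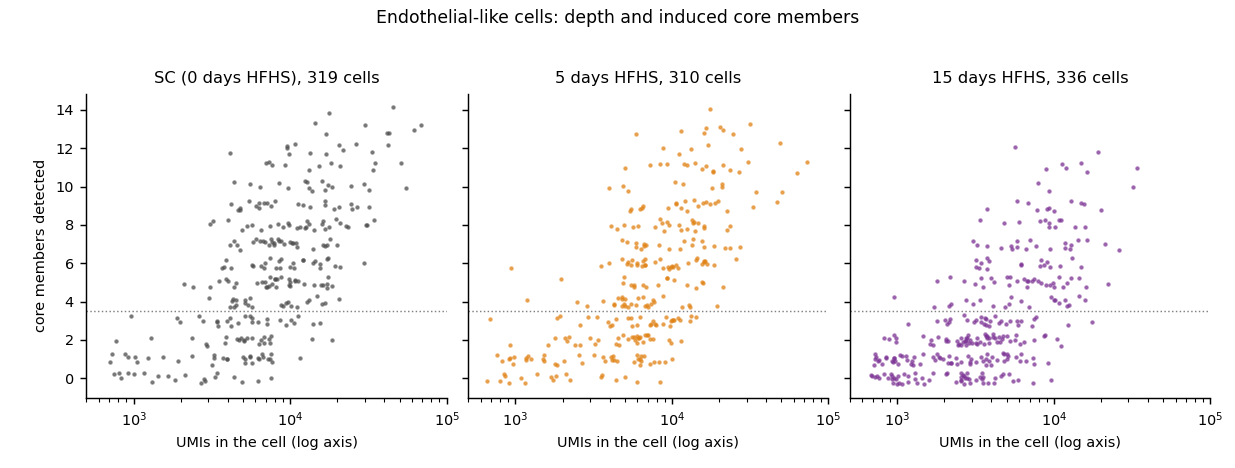
Core genes detected (of 14; points are spread a little up and down) against UMIs per cell on a log axis, 1 point per endothelial-like cell, for the SC, 5-day and 15-day libraries; the dotted line marks the limit of 4. Deeper cells show more core genes in each library, and the 15-day library has more cells at low depth.

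Genes outside the core, which did not choose the carrying cells, were compared between carrying and other endothelial-like cells of the same library. Of 24 such listed genes, 21 were higher in carrying cells in all 3 libraries, against 16.7% of all genes with 30 UMIs, and their median fold was 1.64 against 1.01 over those genes. Ifi27l2a was 3.62-fold higher, Eif2ak2 2.28-fold and Tap1, the peptide transporter of antigen presentation, 2.18-fold. The receptor gene Ifnar1, which is not on the list, was at 0.986-fold and Ly6e at 1.08-fold. Genes beyond the list were ranked by fold among those with at least 30 UMIs in the carrying cells. That minimum favours genes that are high there, so the ranking only describes these cells. The largest folds were Cyp2e1 (11.8-fold), a drug-oxidising enzyme, Lcn2 (10.6-fold), an iron-binding acute-phase protein, and Vcam1 (9.72-fold), the adhesion molecule for leukocytes. They were followed by A430105J06Rik, Lyz2, Ccdc134, Ccl19, Gm5127, Gm17354 and Cdca7, at 7.37-fold to 5.08-fold. Vcam1 had 62.1 against 2.09 CPM in carrying and other cells of the SC library, 103 against 8.42 in the 5-day and 44.98 against 20.5 in the 15-day library. The carrying and other cells had like sums of endothelial markers, at 35151 against 32586, 33722 against 35266 and 30656 against 29603 CPM.

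In microglia-like cells the list sat lower and was uneven. Ly6e, Psmb8, Bst2, Ifi27l2a and Lgals3bp were the most abundant. Ifi27l2a had 144 CPM in the SC library, 235 in the 5-day library and 211 in the 15-day library. Lgals3bp, a secreted glycoprotein, had 131 CPM in the SC library, 190.1 in the 5-day library and 192 in the 15-day library. Both were higher in each HFHS library than in the SC library. The 3 clusters of the class were unevenly filled: 1 held 19.8%, 19.3% and 32.1% of the cells of the SC, 5-day and 15-day libraries, another 43.9%, 36.4% and 48.96%, and the remaining 1 36.3%, 44.3% and 18.98%. The part of this make-up in the microglia-like ratios was not tested. Of 31 genes considered, 3 were higher at 5 days (0.308% of genes) and none lower (0.344%). Ifi27l2a had 235 CPM in the 5-day library against 144 in the SC library (log2 ratio 0.71 [0.54 to 0.87]). Ifit2 had 17.7 CPM in the 5-day library against 6.26 in the SC library (log2 ratio 1.498 [0.77 to 2.27]), but 1 cell gave 53.6% of its 56 UMIs in the 5-day library, and without the top cell of each library the log2 ratio was 0.59. Zbp1, the sensor of left-handed nucleic acid that can trigger cell death, had 18.6 CPM in the 5-day library against 7.62 in the SC library (log2 ratio 1.29 [0.62 to 1.99]), with 27.1% of its 5-day UMIs in 1 cell. In cells of 2000 to 6000 UMIs, a range chosen after seeing the data, none of the 3 was called, and the log2 ratios were 0.16 for Ifi27l2a, -2.52 for Ifit2 and -0.35 for Zbp1. At 15 days none of 26 genes was called in either direction (0.812% of genes higher, 0.907% lower). The medians were 0.10 at 5 days (31 genes, counting error 0.10) and 0.028 at 15 days (29 genes, counting error 0.10), beside -0.0082 and -0.063 over all genes.

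Few microglia-like cells carried the core: 20 of 581 (3.44% [2.12 to 5.27]) in the SC library, 19 of 508 (3.74% [2.27 to 5.78]) in the 5-day library and 26 of 627 (4.15% [2.73 to 6.02]) in the 15-day library. The intervals overlap. These cells held 58.5%, 70.6% and 57.3% of the core UMIs of the class, shares that follow in part from how the cells were chosen, and in the 5-day library 4 cells held at least 50% of them. They too were deeper, with medians of 13900.5, 12804 and 9458.5 UMIs against 5228, 4678 and 4711. Of the 24 listed genes outside the core, 20 were higher in carrying cells in every library, against 8.35% of genes, with a median fold of 2.78 against 0.846. Ifitm3 was 12.8-fold higher, with 677 against 36.1 CPM in carrying and other cells of the SC library, 564 against 42.9 in the 5-day and 464 against 56.4 in the 15-day library. Isg20, an exonuclease that degrades single-stranded RNA, was 7.42-fold higher, Ifi27l2a 6.51-fold and Bst2 4.11-fold. Ifi27 (0.780-fold) and Ifngr1, the interferon gamma receptor (0.683-fold), were not. Beyond the list, with the same minimum in carrying cells, the largest folds were Slfn5 (22.6), Ifi207 (17.6) and Ifi204 (11.7), all known as interferon-responsive. Wfdc17, H2-Ab1, Cybb, Ms4a4c, Ifi209 and Phf11b lay between 6.97-fold and 10.98-fold.

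Other cell types in these microglia-like cells were checked by markers. Endothelial markers summed to 75.2 against 77.5 CPM in carrying and other cells of the SC library, 73.7 against 104 in the 5-day and 99.1 against 77.3 in the 15-day library. Markers of monocytes or neutrophils were higher in carrying cells, at 1347 against 991, 1536 against 1015 and 2189 against 1066 CPM, with 7, 8 and 6 of the 10 markers at 0 there. Lymphocyte markers summed to 462 against 46.4, 39.04 against 44.3 and 317 against 59.4 CPM, with 9 of the 11 at 0 in carrying cells of each library. Border macrophage markers summed to 119.7 against 170.9, 195 against 185 and 456 against 203 CPM, with 7, 6 and 4 of the 9 at 0. H2-Ab1, an antigen-presenting gene of dendritic cells and macrophages, was high in carrying cells of the 15-day library alone, at 860.4 against 72.2 CPM. The part of such cells in these values was not tested.

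Astrocyte-like cells had the lowest summed level of the first 3 classes, led by Ifi27 and Lgals3bp (39.7, 61.1 and 48.7 CPM in the SC, 5-day and 15-day libraries). Eif2ak2 had 27.3, 30.9 and 34.7 CPM, Stat2, the partner of Irf9, 28.1, 29.1 and 25.4, and Cmpk2, a mitochondrial nucleotide kinase, 28.5, 26.2 and 20.6. The last 3 differed less than 1.5-fold between libraries. Stat2, Cmpk2, Ifit2 and Ifit3b were higher here than in microglia-like cells in every library. At 5 days 2 of 18 genes were higher than in the SC library (0.397% of genes) and 1 was lower (1.01%). Ifit1 had 6, 65 and 15 UMIs in the SC, 5-day and 15-day libraries, in 5, 17 and 11 cells. That was 17.2 CPM in the 5-day library against 2.31 in the SC library (log2 ratio 2.90 [1.70 to 4.39]). Ifit3 had 29, 133 and 42 UMIs, or 35.2 CPM in the 5-day library against 11.2 in the SC library (log2 ratio 1.66 [1.07 to 2.29]). The 5-day library stood apart for both genes, and the 15-day library was close to SC. At a 10% mitochondrial limit in place of 20%, the log2 ratio was 0.49 for Ifit1 and -0.093 for Ifit3, and 381 of the 1670 cells then in the class came from a cluster left unnamed at 20%. Ly6e was lower at 5 days, with 10.8 CPM in the 5-day library against 20.8 in the SC library (log2 ratio -0.94 [-1.56 to -0.33]). None of 17 genes was called at 15 days (0.485% of genes higher, 0.293% lower). The medians were 0.18 at 5 days and -0.052 at 15 days, beside -0.047 and 0.011 over all genes.

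Few cells of the named astrocyte-like class carried the core. Carrying cells numbered 1 of 788 in the SC library (0.127% [0.00321 to 0.705]), 15 of 800 in the 5-day library (1.88% [1.05 to 3.07]) and 2 of 1246 in the 15-day library (0.161% [0.0194 to 0.579]). Thinned to 1000 UMIs per cell, 7 cells of the 5-day library and 0 of each of the other libraries reached 4 core genes. The 15 cells held 55 of the 65 Ifit1 UMIs (84.6%) and 85 of the 133 Ifit3 UMIs (63.9%) of their class; since both genes helped to choose the cells, these shares follow in part from that choice. Isg15 had 23 UMIs in 5-day astrocyte-like cells, of which 82.6% came from 1 cell. In the 15 cells, which had 808 to 23021 UMIs each, 4 to 12 core genes were seen, and 4 of the cells were at the limit of 4, with 9 more cells at 3. Cells with such long runs of core genes were not seen among astrocyte-like cells of the other libraries, where the highest count was 4 in SC and 5 in 15-day. At the 10% mitochondrial limit the carrying shares were 9.89%, 7.22% and 2.39% in the SC, 5-day and 15-day libraries, and the 5-day library did not stand above SC.

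The 15 carrying astrocyte-like cells of the 5-day library had astrocyte markers, with 7 to 17 of 17 markers seen and 16 to 988 marker UMIs per cell. Endothelial markers gave 0 to 8 UMIs per cell, against a median of 237 in endothelial-like cells, and summed to 283 against 297 CPM in carrying and other astrocyte-like cells. Microglia markers gave 0 to 4 UMIs per cell except in 1 cell with 54, and summed to 453 against 133 CPM. Lymphocyte markers summed to 177 against 0.824 CPM, with 9 of the 11 markers at 0 in carrying cells, and their part in the result was not tested. Of the 15 cells, 12 fell in 1 astrocyte-like cluster, which held 24.8% of the class in the 5-day library against 9.77% in the SC library; in the 15-day library it held 14.1% of the class and 1 carrying cell. Outside the core, 4 of the 24 listed genes were higher in carrying cells in every library, beside 948 of 11856 genes. The SC and 15-day libraries held only 1 and 2 carrying cells for this. The median fold was 6.45 over the 21 listed genes with 30 UMIs, against 0.826 over all such genes. Among listed genes outside the core, Trim30a, Bst2 and Gbp7, a guanylate-binding protein, had 120.4 against 4.40, 128 against 6.87 and 149 against 17.03 CPM in carrying and other astrocyte-like cells of the 5-day library. Ifnar1 had 35.4 against 56.04 CPM. The genes of largest pooled fold with enough UMIs were Pink1, Ctnnb1, Romo1, Scp2, Pea15a, Rps2, B2m, Rps23, Rps28 and Rps29, at 2.92-fold to 3.69-fold.

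**Figure D4:**
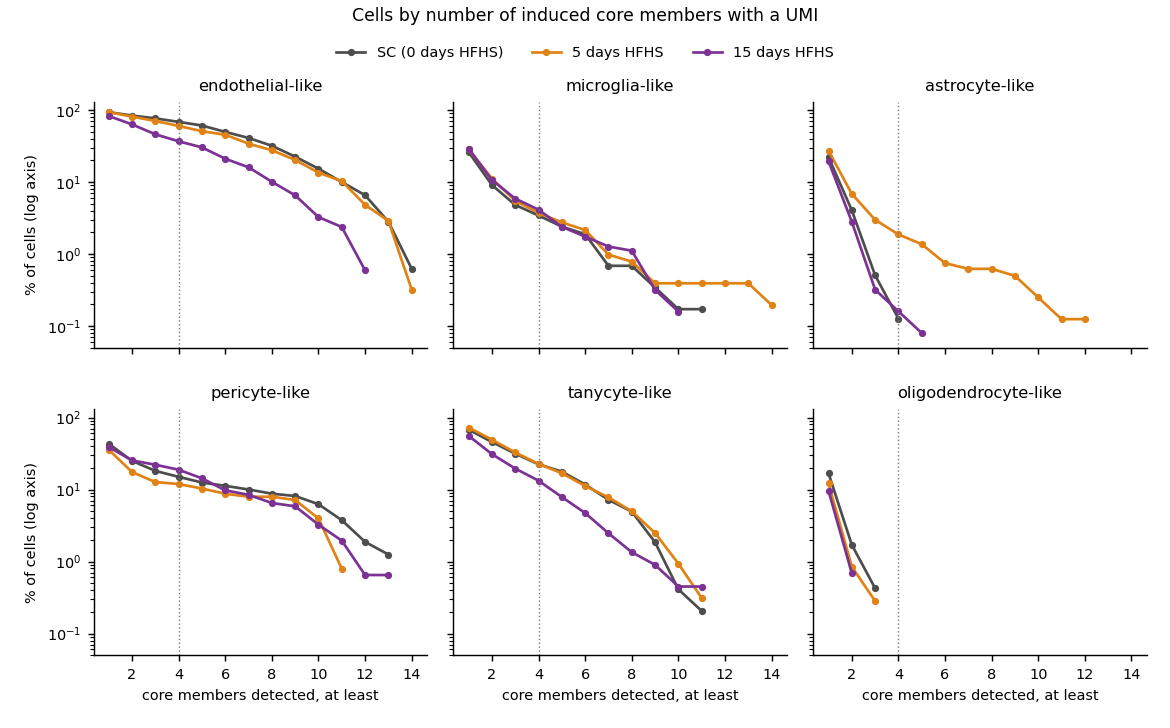
Share of cells (log axis) with at least the given number of core genes, for 6 classes and the SC, 5-day and 15-day libraries; the dotted line marks 4 genes, and a curve ends where no cell has more. The 5-day astrocyte-like curve runs on to 12 genes while the SC and 15-day curves end at 4 and 5; oligodendrocyte-like curves end at 3 or below.

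**Figure D5:**
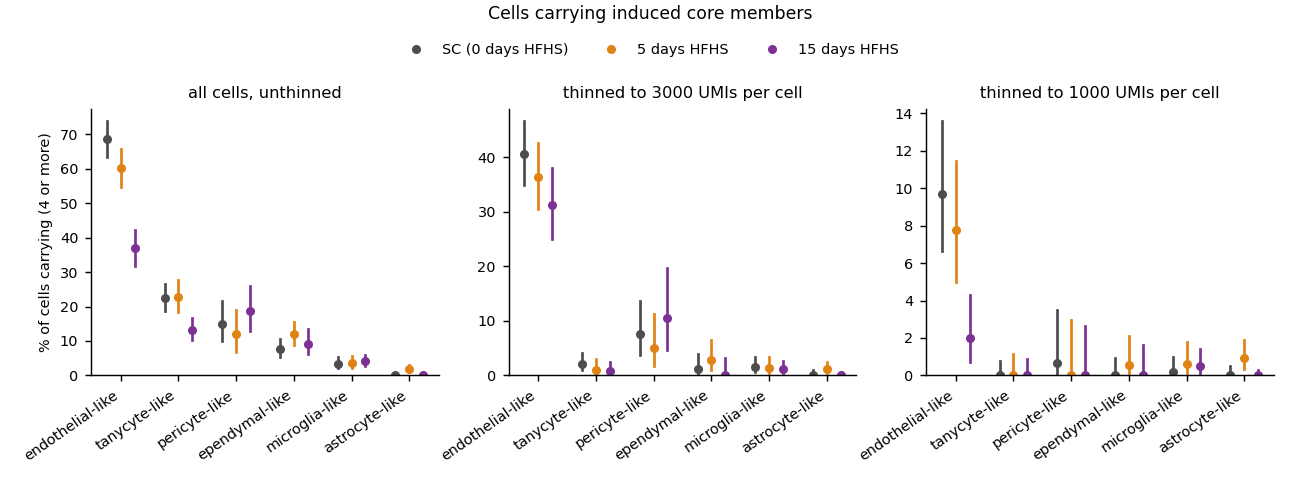
Share of cells carrying at least 4 core genes, with exact 95% binomial intervals, in 6 classes for all cells, after thinning to 3000 UMIs and after thinning to 1000 UMIs per cell. Cells with fewer UMIs than the target are left out of the thinned panels, and each panel has its own scale. The endothelial-like gap between the 15-day and SC libraries narrows at 3000 UMIs, a setting chosen after seeing the data. At 1000 UMIs the 15-day endothelial-like interval lies below both others. The tanycyte-like and ependymal-like shares drop to near 0 with thinning, and the endothelial-like and microglia-like shares fall at 1000 UMIs too.

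The same core genes were followed in the remaining classes wherever they had 20 UMIs, with CPM in the order SC, 5-day and 15-day. Ifit1 stood at 82.8, 64.6 and 68.7 in pericyte-like cells, 9.16, 15.6 and 12.6 in ependymal-like cells, 8.49, 8.32 and 7.46 in tanycyte-like cells and 5.63, 10.5 and 3.98 in OPC-like cells. Isg15 stood at 168, 103 and 135 in pericyte-like cells, 13.4, 16.9 and 17.5 in tanycyte-like cells, 5.89, 13.03 and 3.68 in ependymal-like cells and 5.80, 0.874 and 1.37 in neuron-like cells. Pericyte-like cells came next after endothelial-like cells for both, but 87 of 92, 50 of 52 and 54 of 57 of their Ifit1 UMIs came from 24, 15 and 29 carrying cells, which had high endothelial markers (given further on). Ifit3 had 39.4, 43.4 and 38.6 in tanycyte-like cells, 42.9, 44.8 and 25.2 in ependymal-like cells, 35.1, 37.3 and 22.9 in pericyte-like cells, 9.22, 25.3 and 14.3 in OPC-like cells and 2.68, 1.97 and 1.92 in neuron-like cells. Ifit2 was spread more evenly, with 34.3, 27.9 and 33.5 in OPC-like cells, 25.2, 26.1 and 32.6 in ependymal-like cells, 16.2, 23.6 and 19.3 in pericyte-like cells, 11.99, 12.7 and 9.36 in tanycyte-like cells, 6.97, 3.85 and 4.63 in oligodendrocyte-like cells and 2.45, 3.28 and 3.57 in neuron-like cells. Irf7 had 53.1, 34.8 and 42.2 in pericyte-like cells, 6.04, 6.08 and 3.97 in tanycyte-like cells, 5.23, 4.82 and 6.30 in ependymal-like cells and 2.68, 1.31 and 1.37 in neuron-like cells. Oasl2 had 58.5, 43.5 and 80.8 in pericyte-like cells, 13.4, 18.7 and 14.7 in ependymal-like cells, 9.46, 15.6 and 8.41 in tanycyte-like cells and 3.12, 1.97 and 1.65 in neuron-like cells, and 1.92, 8.20 and 1.32 in astrocyte-like cells. Irf7 had 0.770, 3.70 and 1.06 CPM in astrocyte-like cells, where the SC value rests on 2 UMIs. Ifit3 thus stood higher in tanycyte-like than in microglia-like cells in every library. Usp18 had 23.4, 19.9 and 22.9 in pericyte-like cells, 10.2, 11.9 and 9.04 in tanycyte-like cells, 2.62, 4.53 and 6.83 in ependymal-like cells and 0.385, 5.29 and 0.265 in astrocyte-like cells. Rsad2 had 47.7, 31.1 and 47.03 in pericyte-like cells, 4.91, 6.80 and 6.30 in ependymal-like cells, 3.85, 9.26 and 5.82 in astrocyte-like cells, 2.71, 1.61 and 2.38 in tanycyte-like cells and 1.78, 2.40 and 2.74 in neuron-like cells.

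Few genes were called between diets in these classes. In ependymal-like cells, Isg15 was higher at 5 days (1 of 20 genes, 0.205% of all genes), with 13.03 CPM in the 5-day library against 5.89 in the SC library (log2 ratio 1.15 [0.33 to 2.02]); without the top cell its log2 ratio was 0.13. Bst2 was lower there at 5 days (0.226% of genes), with 55.8 CPM in the 5-day library against 85.7 in the SC library (log2 ratio -0.62 [-0.89 to -0.35]). At 15 days Bst2 (log2 ratio -1.20 [-1.60 to -0.82]) and Ifi27 (log2 ratio -0.61 [-0.82 to -0.41]) were lower (2 of 18 genes, 0.644% of genes). Bst2 thus stood highest in the SC library of this class and lowest in the 15-day library. Of the 2 clusters of the class, the smaller held 20.4%, 25.7% and 34.4% of its cells in the SC, 5-day and 15-day libraries, and its part in these ratios was not tested. In tanycyte-like cells Oasl2 was higher at 5 days (1 of 27, 0.173% of genes; log2 ratio 0.73 [0.34 to 1.11]), and Ifit3b was lower at 15 days (1 of 24, 0.614% of genes; log2 ratio -0.64 [-0.94 to -0.34]). In OPC-like cells Ifit3 was higher at 5 days (1 of 5, 0.12% of genes), with 25.3 CPM in the 5-day library against 9.22 in the SC library (log2 ratio 1.45 [0.65 to 2.32]). In cells of 2000 to 6000 UMIs it was -0.90.

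In pericyte-like cells Isg15 (log2 ratio -0.71 [-1.10 to -0.32]) and Ifi44, an interferon-induced cytosolic protein (log2 ratio -1.22 [-2.20 to -0.33]), were lower at 5 days (2 of 28 genes, 1.01% of genes). The Isg15 ratio turned to 0.34 without doublet removal and to 0.061 in cells of 2000 to 6000 UMIs. The pericyte-like cluster that held nearly all carrying cells made up 11.9% of the class in the 5-day library against 18.1% in the SC library. In oligodendrocyte-like cells Ifi27l2a was lower at 5 days, with 2.51 CPM in the 5-day library against 22.5 in the SC library (log2 ratio -3.17 [-4.04 to -2.40]; 1 of 4 genes, 0.878% of genes), and higher at 15 days (log2 ratio 0.65 [0.33 to 0.97]; 1 of 4, 1.15% of genes; 0.042 without the top cell of each library). In neuron-like cells Ifitm3 was lower at 5 days (log2 ratio -1.40 [-1.91 to -0.91]; 1 of 8, 4.45% of genes) and at 15 days (log2 ratio -1.16 [-1.69 to -0.66]; 1 of 8, 10.9% of genes), where a large share of all genes was called too. Both neuron-like calls reversed without doublet removal, to 0.21 and 0.056. In COP-like cells none of the 3 genes considered at 5 days was called (0.616% of genes higher, 0.754% lower). The 1 gene considered there at 15 days was not called either (1.017% of genes higher, 1.249% lower). With so few genes considered, the lack of calls in this class does not show that the diets were alike.

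Pericyte-like cells with the core had high endothelial markers. Carrying cells numbered 24 of 160 in the SC, 15 of 126 in the 5-day and 29 of 154 in the 15-day library. Endothelial markers summed to 26465 against 2219 CPM in carrying and other pericyte-like cells of the SC library, 23803 against 571 in the 5-day and 22026 against 6295 in the 15-day library, with all 14 markers higher each time. Pericyte markers summed to 11987 against 38093, 12256 against 39172 and 12252 against 29612 CPM. Of the 24 listed genes outside the core, 22 were higher in carrying cells in every library, against 24.3% of genes. The part of endothelial RNA or mixed droplets in the pericyte-like levels was not tested. Carrying tanycyte-like cells numbered 109, 73 and 59 and carrying ependymal-like cells 35, 47 and 25. They were the deepest of their classes, with medians of 58135, 61332 and 41157 UMIs in tanycyte-like cells, against 10636, 12280.5 and 7304 in the others. At 1000 UMIs per cell no tanycyte-like cell reached 4 core genes. In carrying tanycyte-like cells 19 of the 24 listed genes outside the core were higher in every library, beside 2722 of 13182 genes. In ependymal-like cells 10 of the 24 were, beside 3669 of 11938 genes. No oligodendrocyte-like cell of any library carried the core.

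Other genes of the interferon pathway came from a list of 101 symbols (ligands, receptors, kinases, further targets), of which 99 matched. Of the ligands, Ifnb1 had 1 UMI in all, in 15-day microglia-like cells, among the first 3 classes, and Ifng had 0 to 2 UMIs per class and library. Receptors were present in all 3 classes. Ifnar1 had 187, 177 and 137 CPM in endothelial-like cells in the order SC, 5-day and 15-day, 45.2, 41.7 and 47.5 in microglia-like and 56.2, 55.3 and 56.6 in astrocyte-like cells. Ifnar2 had 193, 205 and 174 CPM in endothelial-like, 149, 155 and 144 in microglia-like and 27.7, 33.3 and 26.7 in astrocyte-like cells. Ifngr1 had 88.3, 63.8 and 79.7 CPM in endothelial-like, 690.0, 707 and 555 in microglia-like and 44.3, 50.5 and 43.4 in astrocyte-like cells. Endothelial-like cells thus led for the type I receptor and microglia-like cells for Ifngr1.

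Between diets, none of 56 pathway genes was called in endothelial-like cells at 5 days. At 15 days 3 of 55 were lower, beside the 0.708% of all genes, and none was higher: Il10rb, a shared receptor chain of interferon lambda and interleukin 10 (148 CPM in the 15-day library against 223 in the SC library; log2 ratio -0.59 [-0.80 to -0.39]), Slfn2 (52.9 CPM in the 15-day library against 85.6 in the SC library; log2 ratio -0.69 [-1.04 to -0.35]) and Parp9 (23.97 CPM in the 15-day library against 44.1 in the SC library; log2 ratio -0.88 [-1.41 to -0.38]). In all 10 pathway ratios were above and 45 below 1, with a median of -0.22. In microglia-like cells the chemokine Cxcl10, which draws T cells, was the 1 gene called of 61 at 5 days (0.308% of all genes higher) and of 59 at 15 days (0.812%), both higher: 45.5 CPM in the 5-day library against 22.05 in the SC library (log2 ratio 1.04 [0.64 to 1.46]), and 52.2 CPM in the 15-day library against 22.05 in the SC library (log2 ratio 1.24 [0.86 to 1.64]). The microglia-like cluster led by the chemokines Ccl4, Ccl3 and Ccl12 held 19.8%, 19.3% and 32.1% of its class in the SC, 5-day and 15-day libraries. Its part in the Cxcl10 ratios was not tested. In astrocyte-like cells none of 36 and 35 pathway genes was called. Called pathway genes were not put through the alternative settings used for called genes of the list.

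Counting limits apply to a few genes. Oas1a (ENSMUSG00000052776, chr5:120896256-120907521) has 70% of the 31-base words in its final 500 bases in common with Oas1g, Irf9 overlaps Rnf31 on the same strand, and Ifit3 (ENSMUSG00000074896, chr19:34583531-34588731) has 24.04% of those words in common with Ifit3b (ENSMUSG00000062488, chr19:34607970-34613401), all on GRCm38. Ifit3b in turn has 4.59% of its own words in common with Ifit3. Ifit1 (ENSMUSG00000034459, chr19:34640871-34650009) and Isg15 (ENSMUSG00000035692, chr4:156199424-156200818) have at most 1.502% and 3.62% in common with any other gene. Oas1a had 0 UMIs in astrocyte-like cells of each library.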

How the data were processed

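The authors deposited one matrix of raw UMI counts per library, with 31253 genes, per the file headers. Per the submitters' processing notes, the tools were Cell Ranger, SAMtools and Scanpy 1.4.4 and the build GRCm38; per the file headers, software version 3.1.0 wrote the matrices. Which annotation served for counting is not given in the sources used here. The libraries held 7116, 6204 and 7823 barcodes and 59315940, 52735770 and 43193012 UMIs (SC, 5-day, 15-day).

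From these counts, barcodes under 500 genes or over 20% mitochondrial UMIs were left out, and the 291, 211 and 344 highest doublet scores (0.8% per 1000 barcodes, Scrublet in Scanpy 1.11.5) were removed. Cells were clustered together (3000 variable genes, of which 10 are on the list, 40 components, 15 neighbours, Leiden resolution 1), and 28 of 36 clusters were named from markers. Sums of UMIs were taken over each class in each library. Sums have Poisson, ratios conditional-binomial and shares Clopper-Pearson exact 95% intervals. With 1 library per diet there was no test; the size rule given with the results was tested on simulated data. The list, the 15-gene core and the pathway list were chosen with earlier results of these data known. Genes given in full were the 5 most abundant per first class, those past the size rule, and 9 core genes including Mx1, which was not analysed here. Software was igraph 0.11.9, matplotlib 3.10.9, SciPy 1.17.1, scikit-learn 1.9.0, pandas 2.3.3, NumPy 2.4.6 and Python 3.11.15. Alternatives are listed under the dependence on the processing.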

Additional observations from a re-analysis of the deposited data

Results flagged for a closer look

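Ifi27l2a was past the size rule in opposite directions. At 5 days its log2 ratio to SC was 1.21 in endothelial-like and 0.71 in microglia-like cells but -3.17 in oligodendrocyte-like cells, where the 5-day library had 15 UMIs against 165 in the SC library. In oligodendrocyte-like cells it was 0.65 at 15 days. Isg15 at 5 days had a log2 ratio of 1.15 in ependymal-like and -0.71 in pericyte-like cells. Neither sign held under all alternatives: the ependymal-like value was -0.20 with equal weights and 0.13 without the top cell, and the pericyte-like value 0.34 without doublet removal and 0.061 in cells of 2000 to 6000 UMIs. None of these differences between classes or times was tested, and each side rests on 1 library per diet.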

How the results depend on the processing

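Of 333 alternative values for called genes of the list, 199 kept direction and call, 120 kept the direction only and 14 reversed. The called pathway genes Il10rb, Slfn2, Parp9 and Cxcl10 are not among them. No paired analysis was possible because each diet has 1 library. Each alternative changed 1 choice; the band of 2000 to 6000 UMIs, thinning to 3000 UMIs and joining cluster 5 to the endothelial-like cells were chosen after seeing the data, and the last left all 6 endothelial-like counts and medians within 1.5 times or their counting error. Causes were not tested. Leaving out carrying cells removes cells chosen by core genes, so lower ratios of core genes there follow in part from the choice. In endothelial-like cells at 5 days, the 1 higher gene became 0 thinned to 1000 UMIs, without carrying cells (median 0.080) and in the UMI band. The 4 genes lower there at 15 days became 2 at a 10% mitochondrial limit and when clustered without the lists, 7 with cells weighted equally, 1 thinned to 1000 UMIs (median -0.12) and 0 without carrying cells (median 0.17, reversed). In microglia-like cells at 5 days, the 3 higher genes became 1 under 100 UMIs and 30 CPM, without the top cell and without carrying cells, 5 at 1000 genes per cell and 0 in the UMI band (median -0.23, reversed). At 15 days the 0 higher genes became 2 under median-of-ratios scaling and without carrying cells, and 1 at a 10% mitochondrial limit, at 1000 genes, with equal weights, thinned to 1000 UMIs (median 0.27), without the top cell and in the UMI band. In astrocyte-like cells at 5 days, the 1 lower gene became 0 under median-of-ratios scaling, 100 UMIs and 30 CPM, no doublet removal, equal weights and thinning to 1000 UMIs; the 2 higher became 1 under 100 UMIs and 30 CPM and without the top cell, and 0 thinned to 1000 UMIs, without carrying cells and in the UMI band. A 10% mitochondrial limit gave 1 higher, 2 lower and a median of -0.12 (reversed), and there 381 of 1670 astrocyte-like cells came from the unnamed cluster 13. The median was 0.43 at minimums of 20 and 1 UMIs, 0.51 thinned to 1000 UMIs and -0.23 without carrying cells (reversed). At 15 days it was -0.25 at the 10% limit (1 higher, 4 lower), 0.47 thinned to 1000 UMIs and 0.14 in the UMI band. Single genes reversed in the UMI band: Ifit2 (-2.52) and Zbp1 (-0.35) in microglia-like cells, Ifit3 (-0.90) in OPC-like cells, Isg15 (0.061) in pericyte-like cells and Ifitm3 (0.78 at 5 days, 0.51 at 15 days) in neuron-like cells. Without carrying cells Ifit2 in microglia-like cells (-0.80), Ifit3 in OPC-like cells (-0.32) and Ifitm3 in neuron-like cells at 15 days (0.025) reversed. Without doublet removal Isg15 in pericyte-like cells (0.34) and Ifitm3 in neuron-like cells (0.21 and 0.056) reversed; equal weights reversed Isg15 in ependymal-like cells (-0.20), and the 10% limit Ifit3 in astrocyte-like cells (-0.093). Carrying shares (SC, 5-day, 15-day) in endothelial-like cells were 76.8%, 70.6% and 46.1% at 3 core genes, 49.8%, 45.5% and 21.1% at 6, 59.6%, 48.7% and 28.6% without Irf7, Zbp1 and Rtp4, 74.8%, 66.4% and 44.9% at 1000 genes, 40.6%, 36.4% and 31.3% thinned to 3000 UMIs and 9.71%, 7.77% and 1.99% thinned to 1000. In microglia-like cells they were 1.89%, 2.17% and 1.75% at 6, 1.72%, 2.17% and 1.59% without those 3 genes, 1.54%, 1.32% and 1.22% at 3000 UMIs and 0.180%, 0.612% and 0.487% at 1000. In astrocyte-like cells they were 0%, 0.750% and 0% at 6, 0%, 0.910% and 0% at 1000 UMIs, 0% in SC and 15-day at 3000 UMIs, 0% in SC without those 3 genes, and 9.89%, 7.22% and 2.39% at the 10% limit, where the 5-day library no longer stood above SC. Depth limited the calls: 18 of 38 genes could be considered in astrocyte-like cells at 5 days and 17 at 15 days.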

Other observations

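Cells that the markers left unnamed also carried the core. A cluster led by haemoglobin genes with Gkn3, Sox17 and Sema3g had 7 endothelial markers among its 50 leading genes and 0 among its first 10. Of its cells, 42 of 50 carried the core in the SC library, 50 of 68 in the 5-day library and 18 of 35 in the 15-day library. Cluster 13, led by Tgfb2, Necab2 and Gfap, had 69 of 236 carrying cells in the SC library, 44 of 148 in the 5-day library and 25 of 167 in the 15-day library. Astrocyte markers matched it best, with 2 among its 50 leading genes, under the 3 needed for a name. Neither cluster entered a class, so outside the alternative settings these cells are in none of the values by class.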
